A study of Mus musculus with 3 samples.

Results

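The sites described here are the glucocorticoid receptor (GR) peaks at 4 loci of the mouse genome, named for Per1, Fkbp5, Klf9 and Zfp36. A peak belonged to a locus if its midpoint fell inside a fixed window of build mm9, and both deposited peak lists were searched. The windows were chromosome 11 at 68850000 to 68970000 (Per1), chromosome 17 at 28450000 to 28700000 (Fkbp5), chromosome 19 at 23130000 to 23300000 (Klf9) and chromosome 7 at 29110000 to 29210000 (Zfp36). They hold 6 of the 1898 listed peaks, 5 from wild-type cells (WT) and 1 from GRdim cells.

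Macrophages were grown from femur bone marrow, and the DNA bound by GR was recovered with an antibody and sequenced (ChIP-seq). The WT donors were GR+/+ litter-mates of the GRdim mice, 12 weeks old, all from a line crossed for 4 or more generations onto BALB/c. The GRdim allele, a germline change of 1 amino acid in the DNA-binding domain, weakens the contact between receptor molecules through which GR forms dimers on DNA. The protocol names overnight dexamethasone (1 µM), a synthetic glucocorticoid, and bacterial lipopolysaccharide (LPS, 100 ng/ml, 3 hours), joined by "and/or", and the labels do not say which of these the libraries had received. Each genotype gave 1 ChIP library, from a number of animals that the labels leave unstated. With 1 library a genotype, every comparison below is between these libraries and has no replicate check. Chromosome Y held 26 WT and 0 GRdim peaks, and the labels used here do not name the sex of the donors. A difference in sex was not tested and could not be told apart from genotype. The input library was not analysed here, nor was any RNA, so no value below speaks of the activity of a gene, and the cell label could not be checked against marker genes.

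GR is a steroid-activated transcription factor. On binding hormone it enters the nucleus and binds DNA, as a dimer on palindromic elements or by contact with other factors such as AP-1 and NF-kappaB. Per1, Fkbp5, Klf9 and Zfp36 are widely known as genes that glucocorticoids induce. Per1 encodes a repressor of the circadian clock. Fkbp5 encodes a co-chaperone of Hsp90 that lowers the affinity of GR for hormone and so takes part in a feedback on the receptor. Klf9 encodes a zinc-finger transcription factor. Zfp36 encodes tristetraprolin, which binds AU-rich stretches of cytokine mRNAs and promotes their decay, and which LPS also induces in macrophages.

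The windows are wider than the genes they are named for, which span 14.9 kb (Per1), 87.4 kb (Fkbp5), 26.9 kb (Klf9) and 2.44 kb (Zfp36) in the RefSeq table of assembly GRCm38.p6. In the order of that table, Per1 lies between the coding genes Vamp2 and Hes7, Fkbp5 between Tulp1 and Armc12, Klf9 between Trpm3 and Smc5, and Zfp36 between Plekhg2 and Med29. The peaks are in mm9 and the table is not, so the distance of a peak to a gene's start, and whether it lies in an exon or an intron, was not determined. Whether each window holds the gene it is named for was not checked against an mm9 annotation either. A peak is therefore assigned to a window and not to a gene, and locus names given for peaks stand for windows.

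The sequence before the start of each gene is shown because it is the stretch in which a receptor site or a site of a partner factor would lie at the promoter itself. All sequences are from RefSeq promoters of GRCm38.p6, matched by symbol for 4 of 4 genes (5 starts, since Per1 has a pair), and give the 250 bases before the start in the direction of the gene. Capitals mark CACGTG (the E-box, bound by the circadian clock factors) or TGANTCA, and Zfp36 has neither. TGANTCA is a loose AP-1-like pattern that allows any base in the middle. Per1 is the upstream start of the pair, at chr11:69098699-69098948 on the plus strand; Fkbp5 is at chr17:28486150-28486399 on the minus strand, Klf9 at chr19:23140976-23141225 on the plus strand and Zfp36 at chr7:28379229-28379478 on the minus strand.
Per1: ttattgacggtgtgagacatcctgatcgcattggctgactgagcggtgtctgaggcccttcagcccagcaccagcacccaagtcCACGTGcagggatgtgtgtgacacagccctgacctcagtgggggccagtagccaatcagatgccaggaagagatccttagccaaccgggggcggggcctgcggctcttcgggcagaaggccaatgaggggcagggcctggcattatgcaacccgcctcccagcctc
Fkbp5: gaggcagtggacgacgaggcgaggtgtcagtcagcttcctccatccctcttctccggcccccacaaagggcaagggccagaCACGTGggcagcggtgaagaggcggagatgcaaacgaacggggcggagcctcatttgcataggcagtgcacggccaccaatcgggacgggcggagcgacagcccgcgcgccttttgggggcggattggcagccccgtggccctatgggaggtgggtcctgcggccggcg
Klf9: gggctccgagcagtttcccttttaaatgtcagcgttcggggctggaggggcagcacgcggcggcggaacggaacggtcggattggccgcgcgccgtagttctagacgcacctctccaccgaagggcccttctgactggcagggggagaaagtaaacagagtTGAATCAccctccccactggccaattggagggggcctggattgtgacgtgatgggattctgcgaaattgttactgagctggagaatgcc
Zfp36: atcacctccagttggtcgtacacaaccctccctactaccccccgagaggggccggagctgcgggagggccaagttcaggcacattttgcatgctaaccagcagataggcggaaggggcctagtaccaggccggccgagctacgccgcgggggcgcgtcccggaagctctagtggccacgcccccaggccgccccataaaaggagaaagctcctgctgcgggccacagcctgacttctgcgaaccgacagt

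These letters were searched on both strands in the window from 250 bases before to 50 after each start. The textbook GR palindrome (AGAACA and TGTTCT with 3 bases between) was in 0 of the 5 windows, and in 0.00913% of the 32851 promoters of the table. The hexamer TGTTCT, on either strand and also counted inside the palindrome, was in 0 of 5, against 19% of all promoters. The E-box was in 2 of 5 against 7.15%, at bases -166 to -161 of the upstream Per1 start and -169 to -164 of Fkbp5. The loose AP-1-like pattern was in 1 of 5 against 7.81%, at -89 to -83 of Klf9 (TGAATCA, with A in the middle). The cyclic AMP element TGACGTCA was in 0 of 5 against 1.79%. A loose NF-kappaB-like pattern (GGG and CC with 5 bases between) was in 4 of 5, all but Klf9, against 50.8%. A match describes letters and not a bound site, and the sequence under the peaks themselves was not read, since no mm9 genome was used here.

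GR peaks of WT cells were listed at Per1, Fkbp5 and Klf9, and the only GRdim peak of the 4 loci was at Zfp36. The WT list had 2 peaks at Per1, 1 at Fkbp5, 2 at Klf9 and 0 at Zfp36. The GRdim list had 0, 0, 0 and 1 in the same order. No site at the 4 loci was listed in both genotypes. In the whole lists, 77.5% of the 1076 WT peaks were missing from the GRdim list and 70.6% of the 822 GRdim peaks from the WT list, so 5 of 5 and 1 of 1 are what most peaks of either list show. Among the 40 autosomal WT peaks of 3 RPM or more, a height chosen after seeing the data, 65% were not in the GRdim list, and 3 of the 5 WT peaks here reach that height. Heights are taken to be in RPM, the number of reads at a peak for every 1000000 reads in its library. This unit was inferred from the peak names, since no header states it. Each list ends at a floor, with 1.01 RPM the lowest WT height and 1.05 RPM the lowest GRdim height, so a site that is not listed may still be bound below it.

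**Figure D1:**
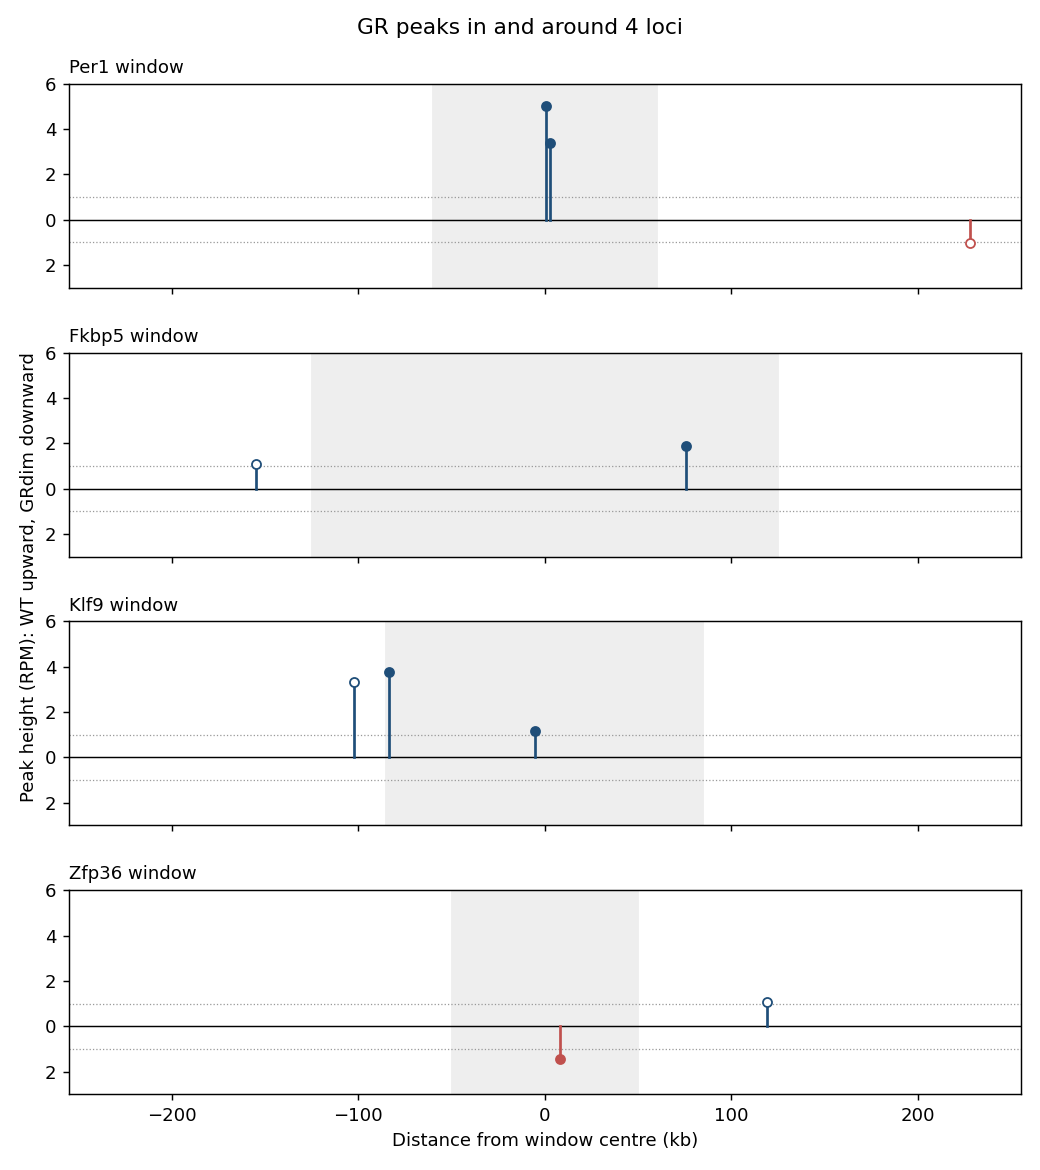
Peak height in RPM (WT upward, GRdim downward) against the distance in kb from the centre of each window, with the window shaded, the level of 1 RPM dotted, peaks inside the window filled and peaks outside it open. WT peaks stand inside the Per1, Fkbp5 and Klf9 windows, the GRdim peak of 1.45 RPM inside the Zfp36 window, and an open WT peak of 3.31 RPM just left of the Klf9 window.

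Per1 carried the tallest GR signal of the 4 loci, as a close pair of WT peaks. The first lay at chromosome 11, 68910489 to 68910688, with 5.0 RPM in WT and no listed height in GRdim. The second lay at 68912808 to 68913007, with 3.38 RPM in WT and again none in GRdim. Their midpoints were 2.32 kb apart, near the centre of the window. With heights read as whole reads (1 read is worth 0.0676 RPM in WT), the first peak held 74 reads (95% exact Poisson interval 58.1 to 92.9, or 3.93 to 6.28 RPM). The second held 50 reads (37.1 to 65.9, or 2.51 to 4.45 RPM). The intervals of the pair overlap, and like all intervals here they cover counting error only. The first peak was the tallest of the 82 WT peaks on chromosome 11 and ranked 7 among the 1031 autosomal WT peaks.

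Close pairs of peaks were few in both lists. Only 50 of the 1031 autosomal WT peaks (4.85%, exact Clopper-Pearson interval 3.62 to 6.34) had another WT peak with its midpoint within 2.5 kb, a distance chosen after the Per1 pair was seen. These made 25 pairs. Peaks thus enter the share in pairs, while this interval and the GRdim one treat them as independent. Neither interval measures a sampling spread. Per1 ranked 1 of the 25 by summed height (8.38 RPM) and was the 1 pair in which the lower peak reached 3 RPM. That height too was chosen after the data were seen, so both statements only describe the pair. Neither peak was in the GRdim list in 16 of the 25 pairs, Per1 included. In GRdim, 36 of 817 autosomal peaks (4.41%, 3.1 to 6.05) had such a neighbour, and the lower peak reached 3 RPM in 0 of 18 pairs. The GRdim peak closest to the Per1 pair stood 225 kb beyond the second peak, at 69137789 to 69137988, with 1.05 RPM, the lowest height of its list.

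**Figure D2:**
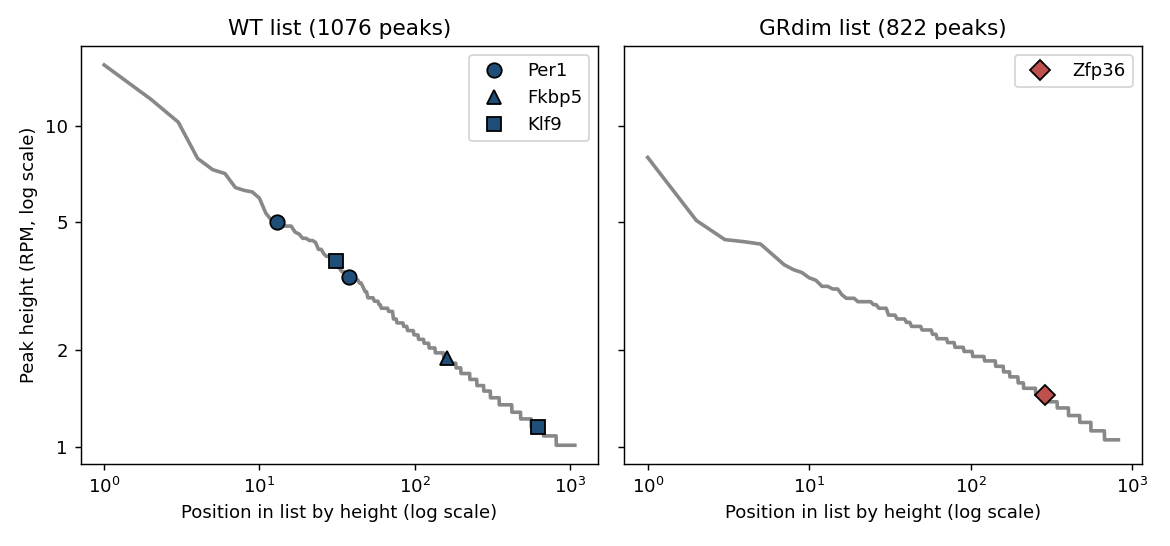
Height in RPM (log scale) against position in the list by height (log scale) for the 1076 WT and 822 GRdim peaks (grey line), with the peaks of the 4 loci as symbols. The Per1 pair and 1 Klf9 peak lie among the tallest 40 WT peaks; the Fkbp5 peak (1.89 RPM) and the Zfp36 peak (1.45 RPM) lie above the medians of their lists (1.22 and 1.25 RPM), and the other Klf9 peak (1.15 RPM) below.

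Klf9 had a tall and a low WT peak, far apart. The tall one, at chromosome 19, 23131416 to 23131615, stood at 3.78 RPM in WT (56 reads, interval 42.3 to 72.7) and was not listed in GRdim. It ranked 22 among autosomal WT peaks and was the tallest but 1 of the 44 WT peaks on chromosome 19. The low one, at 23209461 to 23209660, stood at 1.15 RPM (17 reads, 9.9 to 27.2), a height that 112 WT peaks share, and was not listed in GRdim either. The Klf9 peaks were 78 kb apart and their intervals do not overlap. The tall peak lay 1.51 kb inside the edge of the window. Another WT peak, at 23112794 to 23112993 with 3.31 RPM (49 reads), lay 17.1 kb outside that edge and 18.6 kb from the tall peak, so the bound of the window separates neighbours of like height. That outer peak was also absent from the GRdim list. The closest GRdim peak was 1481 kb from the low Klf9 peak and 1559 kb from the tall one. For autosomal WT peaks without a GRdim match, the median distance to the nearest GRdim peak was 479 kb. Of these peaks, 73.4% lay nearer to a GRdim peak than the low Klf9 peak and 74.4% nearer than the tall one. The same share was 36.7% and 36.1% for the first and second Per1 peaks and 59.4% for the Fkbp5 peak.

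Fkbp5 carried 1 WT peak, above the list's median of 1.22 RPM and below the Per1 pair, at chromosome 17, 28650750 to 28650949. It stood at 1.89 RPM in WT (28 reads, interval 18.6 to 40.5), and GRdim had no listed height there. It ranked 138 among autosomal WT peaks and lay 75.8 kb from the centre of the 250 kb window. Its interval lies below those of the first Per1 peak and the tall Klf9 peak and overlaps that of the second Per1 peak. The next WT peak, of 1.08 RPM, lay 29.7 kb outside the window on the other side, 231 kb away. The closest GRdim peak was 733 kb away.

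Zfp36 was the locus with a GRdim peak and no WT peak. The peak lay at chromosome 7, 29168313 to 29168512, 8.41 kb from the window's centre, with 1.45 RPM in GRdim (22 reads, interval 13.8 to 33.3) and no listed height in WT. It ranked 252 among the 817 autosomal GRdim peaks, above the list's median of 1.25 RPM, and 41 GRdim peaks share its height. The nearest WT peak, of 1.08 RPM, was 111 kb away and 69.3 kb outside the window. For the 576 autosomal GRdim peaks without a WT match, the median distance to the nearest WT peak was 332 kb. Of these peaks, 29.7% lay nearer to a WT peak than the Zfp36 peak.

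The reads at each peak were last set beside the most reads that the other library could hold there if its floor alone kept the site off its list. That limit is 15 reads in GRdim and 14 in WT. It is an assumed limit and not a count, and each peak was met only because it passed the floor in the library where it is high, so the ratios describe these peaks and no test is made of them. The ratios are scaled by the implied depths, which were near equal (WT 14800000 reads, GRdim 15200000). The first Per1 peak stood at 5.06 times the GRdim limit (3.97 to 6.35 from the Poisson interval of its own reads) and the second at 3.42 times (2.54 to 4.51). The tall Klf9 peak stood at 3.83 times the limit (2.89 to 4.97), and the Klf9 peak outside the window at 3.35 times.

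The other peaks lay closer to the limit. Fkbp5 stood at 1.91 times the GRdim limit (1.27 to 2.77) and the low Klf9 peak at 1.16 times (0.677 to 1.86). Zfp36 stood at 1.53 times the WT limit (0.96 to 2.32). The intervals of the low Klf9 peak and of Zfp36 reach below 1. With GRdim set at the median reads of its list, the lower bound at Fkbp5 was 1. The limit is assumed and carries no counting error of its own. At none of the peaks, the taller ones included, do these ratios show that the other library lacks the site. Heights of listed peaks are biased upward by the floor, and filters other than the floor are not described in the sources used here. Whether occupancy at these sites differs between the genotypes was not tested.

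**Figure D3:**
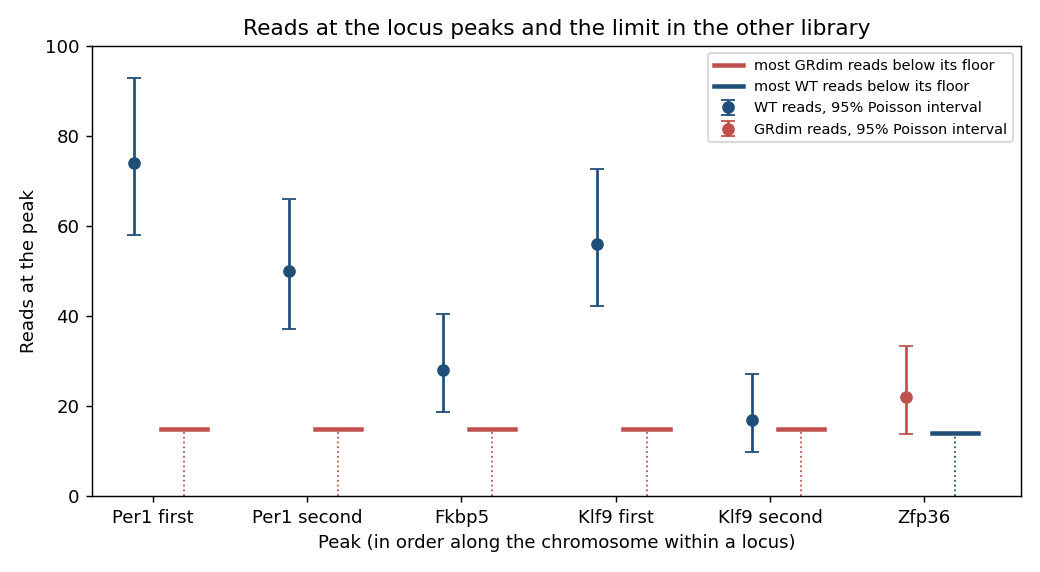
Reads at each of the 6 peaks in the library that lists it (points, with 95% exact Poisson intervals) beside the most reads the other library could hold below its floor (bars, 15 in GRdim and 14 in WT). The intervals of the Per1 pair, the tall Klf9 peak and the Fkbp5 peak lie above the bar, and those of the low Klf9 peak and the Zfp36 peak reach it.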

How the data were processed

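The authors deposited 1 peak list for each genotype, with positions and heights; Bowtie and the mouse build mm9 are named for the alignment per the submitters' processing notes. The peak caller, its thresholds, the use of the input and the Bowtie version are not stated there or in the labels. Heights were taken as RPM as deposited by the authors, because peak names carry 1rpm and no height is below 1; no header states the unit. Positions are printed 1-based. All peaks are 200 bp wide.

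What 1 read is worth was found by fitting the step, between 0.05 and 0.1 RPM, whose multiples lie closest to the heights (0.0676 RPM in WT, 0.0659 in GRdim). Within 0.1 read, 1075 of 1076 WT and 822 of 822 GRdim heights were whole. Depths and read numbers rest on this fit, and a finer step was not tried. Peaks matched if they overlapped by 1 base or more. Statistics were computed with scipy 1.17.1 and numpy 2.4.6 under Python 3.11.15, and figures drawn with matplotlib 3.10.9. The step fit and the Poisson intervals were tested on simulated data. A planned binomial test of sites in 1 list is not reported, since the other list gives no count for them. The text names every peak in the windows and the nearest outside them. The loci, windows and tests were chosen with earlier results of these data known. Chromosome Y held 26 WT and 0 GRdim peaks, so ranks and pairs are given over autosomes. The shares of 77.5% and 70.6% missing from the other list are over all chromosomes.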

Additional observations from a re-analysis of the deposited data

How the results depend on the processing

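Counts were held to be stable within 1.5 times, and ratios to the limit within the Poisson interval of the peak's own reads. Of 66 alternative values, 55 were stable, 10 moved and 1 reversed. Part of the stable values could not have changed, so the tally overstates stability. A peak count of 0 stays 0 in a narrower window, at a higher cut or under a stricter overlap rule. Likewise, a motif count of 0 stays 0 in a shorter stretch. With windows narrowed to their middle, WT peaks fell from 5 to 3, with 0 at Fkbp5 and 1 at Klf9. With windows widened by 50 kb on each side there were 7 WT peaks, 2 of them at Fkbp5 and 3 at Klf9, and still 1 GRdim peak. Heights of at least 1.3 RPM left 1 WT peak at Klf9. Heights of at least 2 RPM left 3 WT peaks (0 at Fkbp5, 1 at Klf9, 2 at Per1) and 0 GRdim peaks, so the Zfp36 count was 0. The number of sites listed in both stayed 0 with edges within 500 bp or 2 kb. The closest that any of the 6 peaks came to a peak of the other list was 111 kb, so these rules could not change the number. It could also only stay 0 with midpoints within 100 bp, a stricter rule than overlap. Setting the unlisted library at the median reads of its list turned the ratio at the low Klf9 peak to 0.918; the other 5 peaks stayed above 1 (1.19 to 3.99), as all 6 did with equal depths (1.13 to 4.93). The motif counts were equal in the 250 bases alone. The test of reads at sites listed in both and its alternatives gave no value, since the 4 loci hold no such site. With 1 library a genotype none could be left out. No paired analysis was possible because there is 1 library for each genotype.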

Other observations

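The Klf9 window lay in a long stretch of chromosome 19 without a GRdim peak. This stretch, found after the lists had been seen and not tested, ran for 4.21 Mb between listed GRdim peaks and held 9 WT peaks of 1.01 to 6.22 RPM, the 2 Klf9 peaks among them. Of the 798 intervals between neighbouring autosomal GRdim peaks, 187 were about as long or longer and 4 held 9 or more WT peaks, with 14 the most in any. The Fkbp5 window lay in a GRdim interval of 6.41 Mb with 7 WT peaks of 1.01 to 3.92 RPM. Of the 798 intervals, 107 were about as long or longer and 9 held as many WT peaks or more. The interval around Per1 was shorter, 0.865 Mb, and held 3 WT peaks, the pair and a peak of 1.08 RPM, a number that 87 of the 798 reached. The median interval was 1176 kb, so the Per1 interval was of ordinary length. In the other direction, the Zfp36 peak was the only GRdim peak in an interval of 0.92 Mb between WT peaks.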
